A study of Mus musculus with 8 samples.

Results

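Glucocorticoid-induced genes are a common readout of stress hormone action in tissue. The 10 followed here were Fkbp5, Sgk1, Tsc22d3, Zbtb16, Cdkn1a, Hif3a, Errfi1, Ddit4, Arrdc2 and Per1, taken by symbol out of 22869 gene symbols in the count table. All 10 were present, and all 10 passed the filter on low counts that left 16069 genes for testing. Where a symbol had several transcript rows, the row with the highest mean count over the 8 libraries stands for the gene.

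Cortex of C57BL/6 mice with the APP/PS1 genotype was the source of all 8 libraries. Such mice carry amyloid precursor protein and presenilin transgenes and form amyloid plaques; the labels do not name the alleles or their promoters. For 4 libraries the agent was bexarotene, which activates retinoid X receptors, and for the other 4 it was 0.2 mg/kg glycerol, called vehicle below. Both groups carry the transgenes, so neither shows how the genes behave without plaques. The sources used here give no bexarotene dose or duration, no age, sex or time of day, and no number of animals per library. The p-values therefore describe the spread among the libraries alone, part of which may be technical. Sex-linked transcripts, given below, differ between libraries, so the 8 are not all repeats of 1 sample. Levels are given in the order of replicates 1 to 4 of each group. Counts over all rows of the table summed to between 42413825 and 76542067 per library.

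Corticosterone enters brain cells, binds the glucocorticoid receptor in the cytosol and sends it to the nucleus, where it binds paired half-sites of DNA (glucocorticoid response elements) beside target genes. The 10 genes are used as markers of that response in many tissues, and in brain several are strongly expressed in glia and blood vessels as well as neurons. None is regulated by the receptor alone: Per1 belongs to the circadian clock, Cdkn1a to the p53 pathway and Ddit4 to the responses to hypoxia and energy stress.

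The known binding sequence of the receptor could be read directly in the reference promoters. RefSeq start sites of 9 of the 10 genes gave 19 windows, each holding the 250 bases upstream of a start (build GRCm38.p6; the submitters' notes name mm9, and no coordinate was carried between the builds). Zbtb16 had no window. The full palindrome, the half-site AGAACA followed by any 3 bases and the reverse half-site TGTTCT, was searched for in them on both strands. It was found in 1 of the 19, an alternative start of Sgk1 at chr10:21993640-21993889 on the plus strand, and in 0.00913% of 32851 windows of the same length. There it reads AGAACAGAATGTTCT and begins 189 bases before the start. The window lies inside longer Sgk1 transcripts but overlaps no exon of the 10 genes in GENCODE M21. It is shown beside the window of the Sgk1 start that lies farthest downstream (chr10:21994416-21994665, plus strand) and the single window of Arrdc2 (chr8:70839721-70839970, minus strand), because Sgk1 and Arrdc2 had replicates 2 and 4 of both groups above replicates 1 and 3. Per1 had that order too, but its windows are not shown. Capitals mark the palindrome, its half-site AGAACA (reverse TGTTCT) and the E-box CACGTG, the site of clock transcription factors. The half-site is part of the palindrome, and in the first window another copy overlaps the E-box.
Sgk1 alternative start: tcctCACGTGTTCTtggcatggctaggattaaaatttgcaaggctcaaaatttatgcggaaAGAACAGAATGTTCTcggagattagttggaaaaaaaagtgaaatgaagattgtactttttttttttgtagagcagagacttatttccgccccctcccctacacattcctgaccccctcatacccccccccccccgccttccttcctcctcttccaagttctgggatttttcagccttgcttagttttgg
Sgk1 downstream start: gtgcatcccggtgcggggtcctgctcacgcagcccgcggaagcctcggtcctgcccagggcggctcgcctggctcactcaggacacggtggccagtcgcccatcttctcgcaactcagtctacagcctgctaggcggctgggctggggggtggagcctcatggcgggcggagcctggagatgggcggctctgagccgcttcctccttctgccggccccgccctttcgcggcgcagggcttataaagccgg
Arrdc2: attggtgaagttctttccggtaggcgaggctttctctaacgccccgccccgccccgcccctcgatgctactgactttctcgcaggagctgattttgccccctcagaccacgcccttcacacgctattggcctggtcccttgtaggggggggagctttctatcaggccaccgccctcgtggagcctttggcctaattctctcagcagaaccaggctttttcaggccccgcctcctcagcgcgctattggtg

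The half-site was present in 4 of the 19 windows, of Sgk1 and Tsc22d3, against 16.1% of all windows, and the E-box in 1 window each of Fkbp5, Per1 and Sgk1, against 6.02%. A match is a description of letters. The 2 other windows shown hold none of these motifs, which says nothing of receptor binding elsewhere at those genes.

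None of the 10 genes differed between bexarotene and vehicle in edgeR's quasi-likelihood test at an adjusted p below 0.05, the threshold at which 0.00622% of all genes were called. Their adjusted p-values lay between 0.684 and 0.973, and DESeq2 and limma-voom also called 0. An unadjusted p under 0.05 was reached by 0 of the 10, against 4.88% of all genes on the higher side and 3.89% on the lower. The groups overlapped for all 10, while 5.77% of all genes had groups that did not overlap (3.61% higher and 2.16% lower with bexarotene). The fitted log2 fold change was below 0 for 9 of the 10, with a median of -0.20, beside 49.8% and a median of 0.00092 over all genes. Ddit4 was the exception. That median was -0.09 without bexarotene replicate 1 and -0.38 without bexarotene replicate 4. Over the 8 libraries the 10 genes spanned up to 3.79-fold from lowest to highest. Within bexarotene, both replicates 1 and 3 lay below both replicates 2 and 4 for 8 of the 10 (28.1% of all genes). Within vehicle they did for 3 of the 10 (22.4% of all genes).

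**Figure D1:**
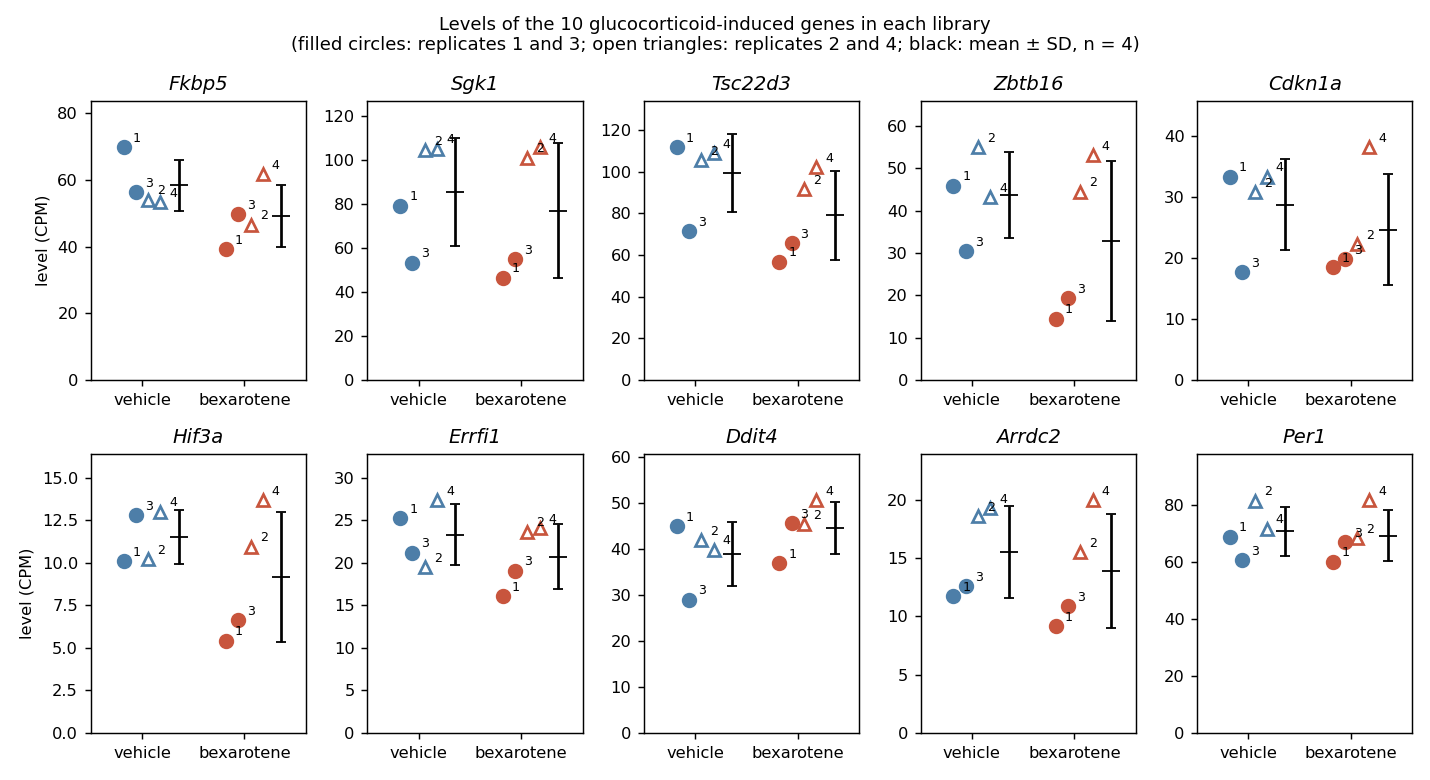
Level of each gene in CPM (library-scaled counts, linear axis from 0) in the 4 vehicle (blue) and 4 bexarotene (red) libraries, with the replicate number beside each point; filled circles are replicates 1 and 3, open triangles replicates 2 and 4, and black bars the mean ± SD (n = 4). The groups overlap in every panel, and for Sgk1, Arrdc2 and Per1 the triangles lie above the circles in both groups.

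CPM are counts scaled so that libraries can be compared, relative to the total over tested rows times the TMM factor, a scaling that balances libraries on their shared genes. Levels of different genes were compared per kilobase of transcript. In vehicle libraries Tsc22d3 had the highest level per length, at 50.3 ± 9.54 CPM per kb (SD, n = 4), and its lowest library (36.1) lay above the highest of Sgk1 (33.9). Sgk1 was at 27.6 ± 7.95, Ddit4 at 22.1 ± 3.95, Fkbp5 at 16.5 ± 2.17, Per1 at 15.1 ± 1.83 and Cdkn1a at 15.0 ± 3.92 CPM per kb. Zbtb16 was at 8.53 ± 1.98, Errfi1 at 7.67 ± 1.18, Arrdc2 at 6.60 ± 1.67 and Hif3a at 5.23 ± 0.717 CPM per kb. In each neighbouring pair after Tsc22d3 the ranges over the 4 vehicle libraries overlapped. The order depends on which transcript row supplies the length. The other row of Cdkn1a, with nearly the same counts over 922 nt in place of 1913 nt, would stand at 31.1 ± 8.17 CPM per kb, above the Sgk1 row kept. The other row of Hif3a, of 6402 nt, would stand at 1.80 ± 0.247 CPM per kb. The shortest Sgk1 row, of 2456 nt, would reach 42.8 CPM per kb in its highest library and so overlap the Tsc22d3 row kept.

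Fkbp5 encodes a co-chaperone that lowers the hormone affinity of the glucocorticoid receptor and so closes a negative feedback loop. Its level was 39.3, 46.5, 49.7 and 61.6 CPM with bexarotene against 69.7, 54.0, 56.3 and 53.2 CPM with vehicle. Vehicle replicate 1 was the highest library and bexarotene replicate 1 the lowest, with bexarotene replicate 4 above 3 of the vehicle libraries. The means were 49.2 ± 9.31 and 58.3 ± 7.69 CPM (SD, n = 4). The log2 fold change was -0.24 ± 0.14 (SE, adjusted p = 0.684 in edgeR's test). By exact permutation (two-sided) the p was 0.2, where 4 libraries against 4 allow no p below 0.0286. Fkbp5 was the 1 member whose order was turned in vehicle, where replicates 1 and 3 both lay above replicates 2 and 4.

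Among the transcriptional regulators, Tsc22d3 encodes GILZ, a leucine zipper protein that mediates anti-inflammatory actions of glucocorticoids. It was at 56.8, 91.5, 65.6 and 102 CPM with bexarotene against 112, 105, 71.3 and 109 CPM with vehicle. The low libraries were bexarotene replicates 1 and 3 and vehicle replicate 3. The log2 fold change was -0.33 ± 0.21 (SE, adjusted p = 0.715 in edgeR's test), and the exact permutation p of 0.171 was the lowest among the 10. Tsc22d3 was also the most typical of the set. Its profile, the log2 CPM minus its mean over the 8 libraries, differed from the mean profile of the other 9 by a root mean square of 0.11, against 0.20 to 0.41 for each other member.

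Zbtb16 encodes PLZF, a zinc finger repressor of transcription, and showed the widest spread of the 10. Its level was 14.5, 44.5, 19.4 and 53.1 CPM with bexarotene against 45.9, 55.0, 30.4 and 43.1 CPM with vehicle. Bexarotene replicates 1 and 3 thus lay below every vehicle library, while replicates 2 and 4 lay within the vehicle range. The log2 fold change over all libraries was -0.41 ± 0.42 (SE, adjusted p = 0.844 in edgeR's test), the largest in size among the 10. It was -0.73 without bexarotene replicate 4 and -0.16 without bexarotene replicate 1.

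Hif3a encodes a member of the hypoxia-inducible factor family whose short forms restrain the other members. It was at 5.43, 10.95, 6.64 and 13.7 CPM with bexarotene against 10.1, 10.2, 12.8 and 12.998 CPM with vehicle. The pattern matched that of Zbtb16 in that bexarotene replicates 1 and 3 lay below every other library. The log2 fold change was -0.33 ± 0.27 (SE, adjusted p = 0.787 in edgeR's test). Per1, a repressor in the core clock loop that glucocorticoids also induce, varied least. It was at 60.0, 68.2, 66.8 and 81.5 CPM with bexarotene against 68.8, 81.4, 60.6 and 71.6 CPM with vehicle, and the sets lay side by side. Its log2 fold change was -0.03 ± 0.12 (SE, adjusted p = 0.973 in edgeR's test), and the sign was positive under upper quartile scaling and without bexarotene replicate 1 or vehicle replicate 2.

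Sgk1, among the signalling genes, encodes a kinase that acts on ion channels and transporters and is a classical glucocorticoid and mineralocorticoid target. It was at 46.5, 101, 54.8 and 106 CPM with bexarotene against 79.3, 104, 53.3 and 105 CPM with vehicle. Replicates 2 and 4 of both groups were within a few CPM of each other, and all 4 replicates numbered 1 or 3 were lower. The log2 fold change was -0.15 ± 0.32 (SE, adjusted p = 0.939 in edgeR's test). Without bexarotene replicate 1 it was 0.03.

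The 6 transcript rows of Sgk1 start at 5 different sites and shared most of their counts: no row exceeded the lowest by more than 6.80% of its reads in any library. The reads that the row of the downstream start held beyond that lowest row were 51, 168, 49 and 191 with bexarotene against 42, 100, 35 and 109 with vehicle. They were higher in replicates 2 and 4 of both groups, like the whole gene. The row of the alternative start whose window holds the receptor palindrome had 0 to 16 such reads per library. The row kept for the gene, of the start farthest upstream, had 101 to 231. How the authors shared reads among rows is not given, so these differences describe table entries and not promoter use. The log2 fold change differed little over the 6 rows, from -0.16 to -0.15. Tsc22d3 had 2 rows that differed by up to 14.8%, with log2 fold changes of -0.33 and -0.29.

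Errfi1 encodes MIG6, an inhibitor of the epidermal growth factor receptor. It was at 16.1, 23.7, 19.1 and 24.1 CPM with bexarotene against 25.2, 19.5, 21.2 and 27.4 CPM with vehicle, a log2 fold change of -0.17 ± 0.15 (SE, adjusted p = 0.809 in edgeR's test). Bexarotene replicates 1 and 3 were again the lowest libraries. Cdkn1a encodes p21, an inhibitor of cyclin-dependent kinases. It was at 18.5, 22.2, 19.8 and 38.1 CPM with bexarotene against 33.3, 30.7, 17.6 and 33.3 CPM with vehicle. A single library in each group stood away from the rest, bexarotene replicate 4 above and vehicle replicate 3 below, and the log2 fold change was -0.22 ± 0.28 (SE, adjusted p = 0.883 in edgeR's test).

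Ddit4 encodes REDD1, which restrains the mTORC1 growth pathway, and was the 1 member with a positive log2 fold change, 0.20 ± 0.14 (SE, adjusted p = 0.753 in edgeR's test). It was at 36.8, 45.3, 45.5 and 50.5 CPM with bexarotene against 44.8, 41.8, 28.9 and 39.8 CPM with vehicle. Bexarotene replicates 2, 3 and 4 lay above every vehicle library, and bexarotene replicate 1 lay inside the vehicle range. With an offset for transcript length and GC content the log2 fold change was 0.09. Arrdc2 belongs to the alpha-arrestins, adaptors that guide membrane proteins to degradation. It was at 9.14, 15.5, 10.9 and 19.97 CPM with bexarotene against 11.7, 18.6, 12.6 and 19.3 CPM with vehicle, a log2 fold change of -0.17 ± 0.26 (SE, adjusted p = 0.914 in edgeR's test). All 4 libraries numbered 2 or 4 lay above all 4 numbered 1 or 3.

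**Figure D2:**
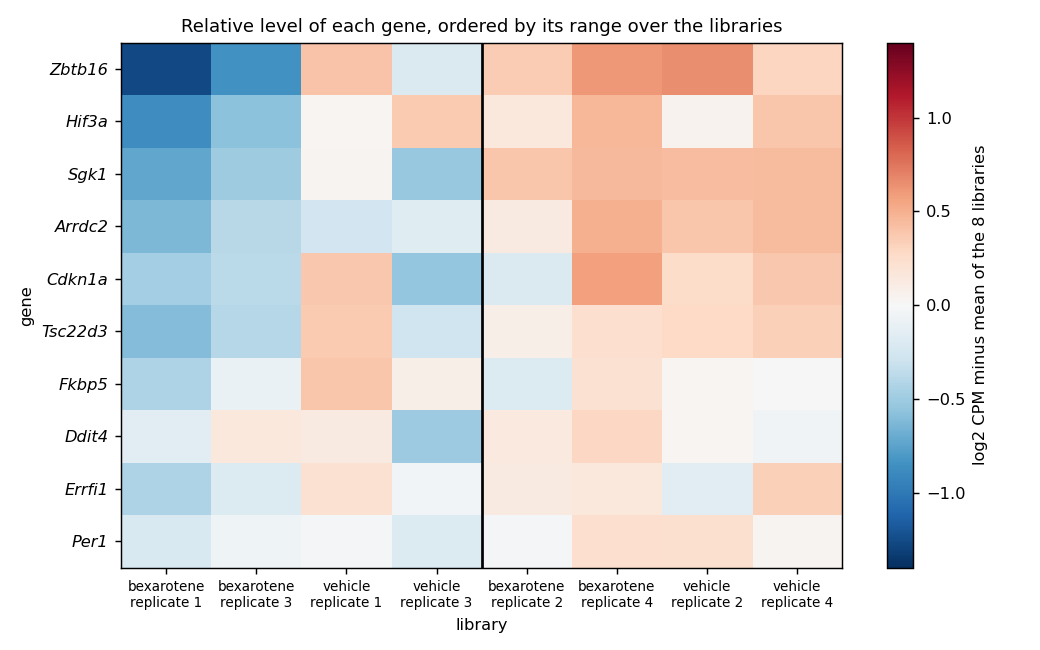
Relative level of each gene (rows, ordered by range) in each library (columns), as log2 CPM minus the gene's mean over the 8 libraries, red above and blue below that mean, with replicates 1 and 3 left of the line and 2 and 4 right of it. Bexarotene replicate 1 is below the mean for all 10 genes and bexarotene replicate 4 above it for all 10.

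The median relative level of the 10 was -0.54, 0.13, -0.38 and 0.37 with bexarotene and 0.17, 0.24, -0.20 and 0.33 with vehicle (log2 CPM minus the mean over libraries). Bexarotene replicate 1 was the lowest of all 8 libraries for 8 of the 10 genes, and vehicle replicate 3 for the other 2, Cdkn1a and Ddit4. Bexarotene replicate 4 was the highest for 6 of the 10. The share of all genes with their lowest or highest level in these libraries was not counted, so these counts may not be particular to the members. Both bexarotene replicates 2 and 4 exceeded both replicates 1 and 3 for 8 of the 10, all but Fkbp5 and Ddit4, where 28.1% of all genes did. In vehicle the same order held for 3 of the 10, Sgk1, Arrdc2 and Per1, where 22.4% did. These 3 had it in both groups, against 10.1% of all genes. In fold terms replicates 2 and 4 were above replicates 1 and 3 by 2.89 for Zbtb16, 2.05 for Sgk1, 2.03 for Hif3a and 1.76 for Arrdc2 under bexarotene. Under vehicle the same folds were 1.30, 1.61, 1.01 and 1.56.

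Over the whole data set the libraries also divided by replicate number, but not in the same way as the members. With the 10 genes left out, the first principal component held 36.5% of the variance. It had replicates 1 and 3 of both groups on the negative side and replicates 2 and 4 on the positive side. Vehicle replicate 1 lay farthest out on the negative side, at -0.54, yet the members had a median relative level of 0.17 there. Xist, the RNA of the inactive X chromosome, was at 248 and 307 CPM in vehicle replicates 1 and 3 and at most 0.861 CPM in vehicle replicates 2 and 4, with the 4 Y-linked genes the other way round. Every bexarotene library held both Xist and Y-linked transcripts. Over bexarotene replicates 1 to 4, Xist was at 180, 84.7, 116 and 218 CPM. Y-linked transcripts summed to 17.1, 88.5, 55.8 and 9.81 CPM there. Within bexarotene neither divided replicates 1 and 3 from replicates 2 and 4. Neither the cause of this axis nor the part of sex in the members' levels was tested.

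**Figure D3:**
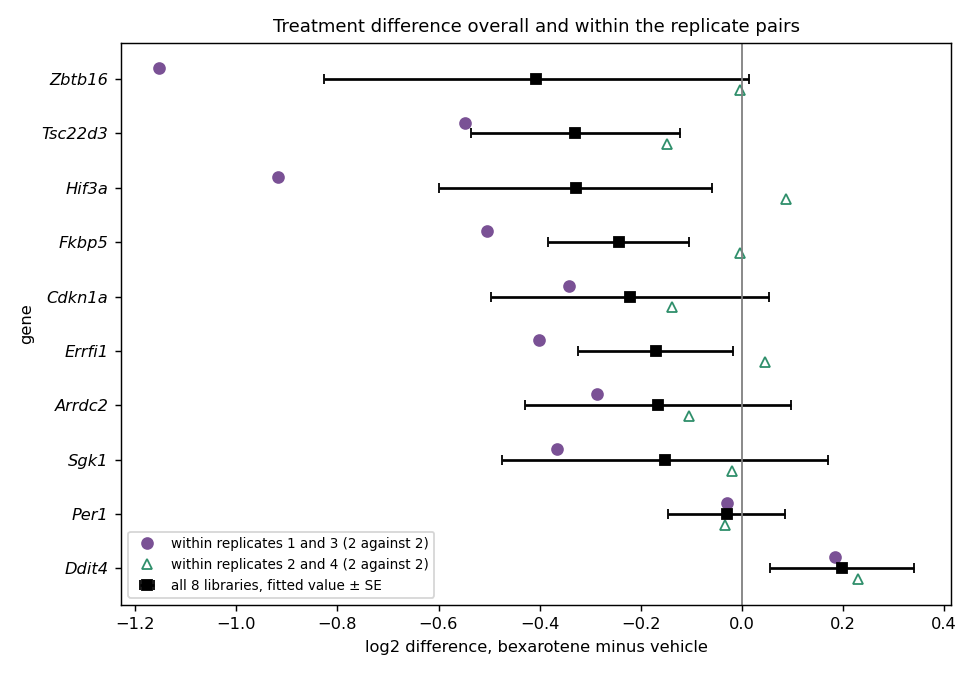
Log2 difference of bexarotene minus vehicle for each gene: black squares are the fit over all 8 libraries with bars of 1 SE, purple circles the difference of mean log2 CPM within replicates 1 and 3, and open green triangles within replicates 2 and 4 (2 libraries against 2 each). The triangles lie between -0.15 and 0.23, while the circles reach -1.15 for Zbtb16 and -0.92 for Hif3a.

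The comparison was also made within each side of this axis. The split was chosen after bexarotene replicates 1 and 3 had been seen to be low, so the values restate that observation and are given as a description. The sides are not matched for sex markers: Y-linked transcripts summed to 17.1 and 55.8 CPM in bexarotene replicates 1 and 3, but to 0.282 and 0.251 CPM in vehicle replicates 1 and 3. In replicates 2 and 4 they summed to 88.5 and 9.81 CPM with bexarotene and to 134 and 141 CPM with vehicle. Within replicates 1 and 3, 9 of the 10 genes had a negative log2 difference, with a median of -0.38 over the members and 0.03 over all genes. The difference was -1.15 for Zbtb16, -0.92 for Hif3a, -0.55 for Tsc22d3, -0.50 for Fkbp5, -0.40 for Errfi1 and -0.37 for Sgk1. For 6 of the 10, both bexarotene libraries lay below both vehicle libraries, as they did for 27.0% of all genes. Within replicates 2 and 4 the median was -0.01, beside 0.0055 over all genes, and the differences ran from -0.15 for Tsc22d3 to 0.23 for Ddit4. A fit to the 4 libraries numbered 1 or 3 placed 1 member, Hif3a, past the threshold, beside 2.34% of all genes lower and 2.06% higher. Because of how the libraries were chosen, that is no separate evidence for Hif3a. The difference between the 2 sides was not tested. With the side as a term in the fit of all 8 libraries, the lowest adjusted p among the 10 was 0.346.

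Of 12 genes of the glucocorticoid receptor pathway, 11 passed the filter on counts and 0 were called, with 4 positive and 7 negative log2 fold changes and a median of -0.03. Nr3c1, the glucocorticoid receptor itself, was at 52.8, 71.6, 54.4 and 65.0 CPM with bexarotene against 55.8, 84.4, 60.5 and 74.9 CPM with vehicle. It too was higher in replicates 2 and 4 of both groups, and its log2 fold change was -0.18 ± 0.15 (SE, adjusted p = 0.788 in edgeR's test). Nr3c2, the mineralocorticoid receptor, which binds the same hormone with higher affinity, had a log2 fold change of -0.04 ± 0.12. Hsd11b1, which regenerates active hormone inside cells, held 4.47, 12.2, 5.43 and 7.46 CPM with bexarotene against 5.74, 13.02, 7.69 and 10.2 CPM with vehicle. Here too replicates 2 and 4 lay above replicates 1 and 3 in each group. Its log2 fold change was -0.31 ± 0.34 (SE).

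For the receptor's chaperones, log2 fold changes were 0.16 ± 0.09 for Fkbp4, the co-chaperone that competes with the product of Fkbp5, and 0.08 ± 0.08 and -0.03 ± 0.09 for the chaperone genes Hsp90ab1 and Hsp90aa1 (SE). Ncoa2, a coactivator, had the smallest p of the list and the only unadjusted p under 0.05 in it, with a log2 fold change of -0.31 ± 0.11 (SE, adjusted p = 0.494 in edgeR's test). Over all genes 3.89% had such a p on the lower side. Abcb1a, the pump that exports steroids at the blood-brain barrier, was at 0.10 ± 0.15. Hsd11b2, the enzyme that inactivates the hormone, did not pass the filter.

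A further 26 genes known to be induced by glucocorticoids were examined in the same way. All 26 were tested and 0 were called, with 11 positive and 15 negative log2 fold changes and a median of -0.04. An unadjusted p under 0.05 was reached by 2 on the higher side, Mt1 and Lcn2 (the latter named after its values were seen), and by 1 on the lower, Cebpb. Over all genes 4.88% reached it on the higher side and 3.89% on the lower. In 15 of the 26, replicates 2 and 4 exceeded replicates 1 and 3 in both groups, where 10.1% of all genes did. The widest case was Plin4, a lipid droplet coat protein gene, named here after its values were seen. It was at 6.03, 24.5, 9.83 and 33.0 CPM with bexarotene against 9.33, 29.9, 16.3 and 30.8 CPM with vehicle. Klf9, a transcription factor gene also chosen after its values were seen, was at 87.8, 158, 92.8 and 167 CPM under bexarotene and 130, 177, 122 and 143 CPM under vehicle in the same order. The smallest p-values belonged to the metallothionein gene Mt1, with a log2 fold change of 0.34 ± 0.11 (SE, adjusted p = 0.477 in edgeR's test), and to Cebpb, with -0.27 ± 0.11 and 0.56. In this list the groups did not overlap for 2 genes higher with bexarotene, Mt1 and Cebpd, and for 1 lower, Cebpb. Cebpd was named after its values were seen. Over all genes 3.61% did not overlap on the higher side and 2.16% on the lower.

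**Figure D4:**
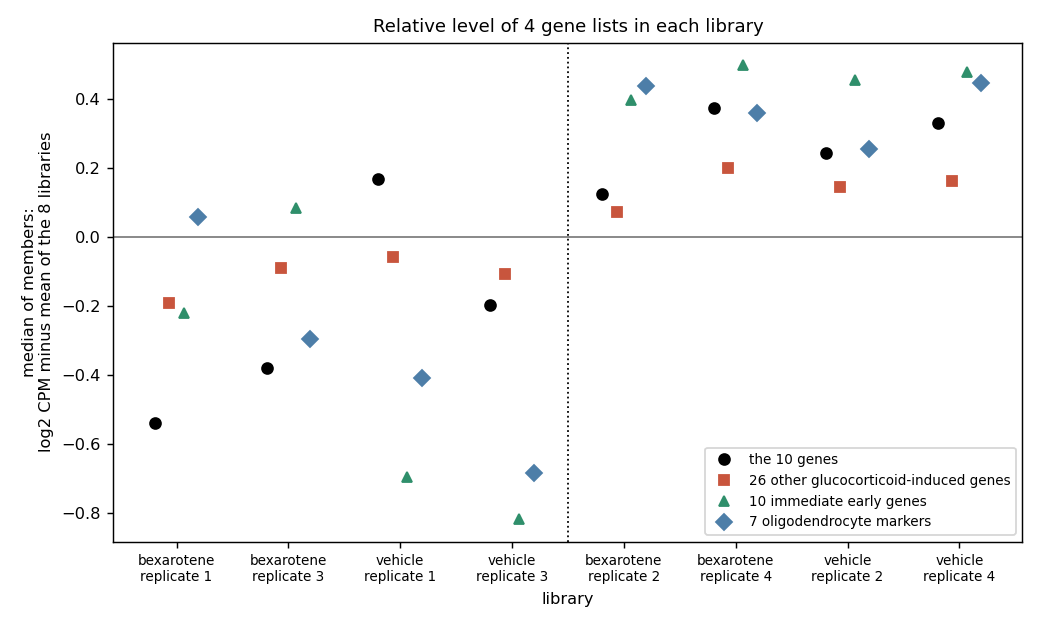
Median relative level (log2 CPM minus the mean over the 8 libraries) of 4 gene lists in each library: the 10 genes (black), 26 other glucocorticoid-induced genes (red), 10 immediate early genes (green) and 7 oligodendrocyte markers (blue). All 4 lists lie above 0 in the 4 libraries numbered 2 or 4, right of the dotted line.

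Pathways to which single members belong were described for comparison, and 0 genes of these lists were called. An unadjusted p under 0.05 in edgeR's test was reached by 1 clock gene, Clock, and 1 p53 target, Trp53inp1, both lower, and by 0 hypoxia-induced genes. Over all genes 3.89% reached it on the lower side. The groups of Clock and Trp53inp1 also did not overlap, where 2.16% of all genes were lower without overlap. Of 14 clock genes tested beside Per1, 10 had a negative log2 fold change (median -0.10). Clock, the activator that drives Per1, was at 31.7 to 42.4 CPM under bexarotene and 45.4 to 51.6 CPM under vehicle without overlap, a log2 fold change of -0.38 ± 0.11 (SE, adjusted p = 0.393 in edgeR's test). Nr1d2, a repressor of the same loop, was at -0.21 ± 0.11. Of 11 p53 targets beside Cdkn1a, 6 were negative (median -0.12), with Trp53inp1 at -0.45 ± 0.17 and Bbc3 at 0.35 ± 0.20. Of 12 hypoxia-induced genes, which share regulators with Ddit4 and Hif3a, 9 were positive (median 0.11), with Adm at 0.56 ± 0.32 and Vegfa at 0.25 ± 0.16.

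Immediate early genes, which neurons switch on within minutes of activity or handling, were read as a further comparison. All 10 were tested, 0 were called and 0 had an unadjusted p under 0.05. In this list 9 had a positive log2 fold change (median 0.13), and 7 of the 10 were higher in replicates 2 and 4 than in 1 and 3 in both groups. Egr2 had a log2 fold change of 0.57 ± 0.37 and Junb 0.22 ± 0.25 (SE). Over replicates 1 to 4, the summed level of the 10 was 405, 651, 480 and 724 CPM under bexarotene and 367, 814, 264 and 627 CPM under vehicle. In vehicle replicate 1 the lists differed: its immediate early genes had a median of -0.70 on the relative scale and the 10 glucocorticoid-induced genes 0.17.

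Cell type markers also differed between libraries. The 7 markers of oligodendrocytes, the myelin-forming cells, summed to 1871, 2413, 1502 and 2281 CPM with bexarotene against 1297, 2140, 1168 and 2620 CPM with vehicle, with 5 of the 7 higher in replicates 2 and 4 of both groups. Striatum markers ran the other way, at 973, 213, 713 and 208 CPM under bexarotene and 490, 167, 262 and 241 CPM under vehicle. Summed mural and red blood cell markers were highest in bexarotene replicates 1 and 3. The 6 mural cell markers summed to 164 and 129 CPM in bexarotene replicates 1 and 3, against 87.4 to 107 CPM in the other 6 libraries. Vtn made up most of the sums in those replicates, at 99.6 and 76.1 CPM. Pdgfrb and Rgs5 did not share the pattern: Pdgfrb was highest in vehicle replicate 4 and Rgs5 in bexarotene replicate 4. Red blood cell markers summed to 37.7 and 24.8 CPM in bexarotene replicates 1 and 3, against 4.60 to 16.9 CPM in the rest. Slc4a1 was highest in vehicle replicate 2. Hba-a1 and Hba-a2 had the same CPM in every library, as did Hbb-b1 and Hbb-b2, so these sums may count the same reads more than once. The 8 endothelial markers summed to 231, 176, 183 and 197 CPM under bexarotene and 133, 201, 149 and 192 CPM under vehicle, highest in bexarotene replicate 1. The 6 astrocyte markers summed to 3066 to 3666 CPM under bexarotene and 3180 to 4248 CPM under vehicle. Choroid plexus markers summed to 88.0, 1455, 74.8 and 226 CPM under bexarotene and 15.8 to 41.3 CPM under vehicle. Most of the bexarotene sums was Ttr, at 68.0, 1397, 58.7 and 213 CPM, against 6.14 to 33.0 CPM under vehicle. Of the 6 markers, Ttr alone had groups that did not overlap. The 6 neuron markers were present in every library and summed to 3845, 5345, 4301 and 5382 CPM with bexarotene and to 4601, 5350, 5204 and 5331 CPM with vehicle. Bexarotene replicates 1 and 3, where the median of the members was lowest, also had the lowest of these sums. Most of each sum came from Snap25, Syt1 and Slc17a7, which were lowest there. Rbfox3 was lowest in vehicle replicate 1, at 233 CPM. Gad1 (265, 207, 253 and 170 CPM under bexarotene) and Gad2 (223, 113, 210 and 95.0 CPM) were higher in bexarotene replicates 1 and 3 than in 2 and 4. The 6 microglia markers summed to 318 to 425 CPM with bexarotene and 247 to 308 CPM with vehicle, and these sums did not overlap. Taken singly, 4 of the 6 did not overlap, where 3.61% of all genes were higher without overlap. P2ry12 and Csf1r did overlap, and 0 of the 6 were called. In bulk tissue fewer cells of a type and less RNA per cell cannot be told apart, and the part of these markers in the members' levels was not tested.

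Outside these lists, the genes whose profile over the 8 libraries lay nearest to the mean profile of the 10 were Dip2b, Ptar1, Cntn4, Numb and Scube1, by the root mean square difference in relative log2 CPM. They lay within 0.084 to 0.10, against a median of 0.37 over the 13965 genes ranked, those with a mean of at least 1 CPM. Dip2b was at 40.1, 59.3, 43.0 and 62.2 CPM with bexarotene against 59.3, 60.4, 46.0 and 64.2 CPM with vehicle. Bexarotene replicates 1 and 3 were its lowest libraries and vehicle replicate 3 came next, the order of the members' median relative level. Single members often departed from that order. The likeness of Dip2b follows from its choice by nearness to the mean profile.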

How the data were processed

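The authors deposited raw read counts per RefSeq transcript for 8 libraries, as whole numbers with unequal totals. A Qiagen RNeasy kit and a stranded TruSeq mRNA kit were used, per the labels' protocols. The submitters' processing notes name mm9 and edgeR. For the aligner, counter, strand setting and annotation, the entry is: not given in the sources used here. Overlapping genes of opposite strand may therefore share reads.

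Groups and replicate numbers came from the titles. All 28644 rows entered 1 fit with edgeR 4.0.16 (R 4.3.3): the default low-count filter (21285 rows left), TMM factors, robust dispersions, a quasi-likelihood F test of the group and Benjamini-Hochberg adjustment over all rows tested. Standard errors came from the F statistic. The pipeline was tested on simulated data. Exact permutation tests used log2 CPM with a prior count of 2. Transcript lengths came from GENCODE M21, by accession for 97.0% of rows. Alternatives were RLE and upper quartile factors, no filter, 1 row per gene, summed rows, DESeq2 1.42.0, limma-voom (limma 3.58.1), a replicate block, a length and GC offset with and without the block, and leaving out each library.

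The 10 genes, the lists and the tests were chosen with earlier results of these data known. Genes named were the 10 members, the receptor pathway and the 5 nearest profiles. Of each other list they were the members past the threshold, or else the 2 with the smallest p. Others are said to be chosen later, and single cell type markers were named after their values were seen. Libraries with the same number deviated together from their groups, with correlations of 0.43, 0.28, 0.14 and 0.16 for replicates 1 to 4, all above the 0.1 set for pairing, but libraries of unequal number passed it too. Bexarotene replicate 3 correlated at 0.44 with vehicle replicate 1 and bexarotene replicate 4 at 0.23 with vehicle replicate 2, both above their own numbers, and bexarotene replicate 2 at 0.20 with vehicle replicate 4. Nothing but the titles and these correlations supplies the pairing.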

Additional observations from a re-analysis of the deposited data

Results flagged for a closer look

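In 2 of the 20 groups of 4 libraries, 1 library lay far from the other 3 by Dixon's test at the 95% level. Chance marks about 1 in 20 groups. Both cases were vehicle replicate 3 as the lowest library. It held Tsc22d3 at 71.3 CPM, where the other vehicle libraries had 105 to 112 CPM, and Cdkn1a at 17.6 CPM, where they had 30.7 to 33.3 CPM. Without vehicle replicate 3 the log2 fold change was -0.46 for Tsc22d3 and -0.40 for Cdkn1a, and neither passed the test.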

How the results depend on the processing

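Members called stayed at 0 in both directions under all 18 alternatives planned. The other 8 genes did not change sign in the 18, but single libraries moved them widely. Without bexarotene replicate 1 Arrdc2 was at -0.0098, Errfi1 at -0.07, Cdkn1a at -0.11, Hif3a at -0.14, Fkbp5 at -0.15, Zbtb16 at -0.16 and Tsc22d3 at -0.20. Without bexarotene replicate 4 Arrdc2 was at -0.39, Cdkn1a at -0.51, Hif3a at -0.58 and Zbtb16 at -0.73. Ddit4 was at 0.08 without vehicle replicate 3, and Fkbp5 at -0.15 without vehicle replicate 1. Of the sign changes, Per1 was at 0.00040 with upper quartile factors, and when single libraries were left out it ran from -0.11 (without bexarotene replicate 4) to 0.051 (without vehicle replicate 2), with 0.033 without bexarotene replicate 1. Sgk1 ran from -0.34 (without bexarotene replicate 4) to 0.028 (without bexarotene replicate 1). The median of the members ran from -0.38 to -0.09 when single libraries were left out, those values belonging to bexarotene replicates 4 and 1, and was -0.24 under an offset for length and GC. The replicate block gave -0.22, and -0.27 together with that offset; the block changed no call, and the lowest adjusted p of a member was 0.475. Over all genes, DESeq2 called 70 higher and 27 lower against 1 and 0 in the main test, and leaving out single libraries gave 1 to 2 higher (2 without bexarotene replicate 2) and 0 lower. Of the settings added later, replicates 1 and 3 alone gave 332 genes higher and 378 lower, with 1 member lower, and replicates 2 and 4 alone gave 0 higher, with Fkbp5 at 0.010, Hif3a at 0.086 and Errfi1 at 0.027. The side as a term gave 3 higher. The cause of these differences was not tested. Either side alone holds fewer libraries than the main fit. With 4 libraries a group, and standard errors of 0.12 to 0.42, modest differences in these genes could not be told from 0.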
